A study of Mus musculus with 28 samples.

Results

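The genes described here mark lymphocytes: T cells and natural killer (NK) cells on one side, B cells on the other. They were picked by name, by matching the accession of each array probe to a list of 24 T and NK cell genes and 9 B cell genes. Of the 19232 named genes on the array, 32 matched, 23 of T and NK cells and 9 of B cells. Cd8b1 had no matching probe and was not analysed here.

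All 28 samples were liver RNA of Fah-/- mice, which lack fumarylacetoacetate hydrolase, the enzyme that completes the breakdown of tyrosine. NTBC (nitisinone), given in the drinking water, blocks an earlier step of that pathway and so protects the liver from toxic intermediates. Fah-/- mice that also lacked p53 (Fah-/- p53-/-) were sampled with no NTBC, with a reduced dose and with the full dose, and so were Fah-/- mice with no further mutation. Fah-/- mice that also lacked p21 (Fah-/- p21-/-) were sampled with no NTBC. Each of the 7 groups had 4 arrays. The full dose was 7.5 mg/L. The labels of the samples put the reduced dose at 25% of it and the series notes at 2.5% for 3 months, so it is called reduced here. Age, sex, strain and the time spent without NTBC are not stated in the labels. Nor do they say if each sample is a different animal, and p-values therefore measure the spread between these samples.

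A T cell recognises its target through the T cell receptor, whose signal passes through the Cd3 chains and the zeta chain to the kinases Lck and Zap70, with Cd4 or Cd8 as coreceptor. NK cells and cytotoxic T cells kill with perforin and granzymes, under the control of the transcription factors T-bet and Eomes. B cells signal through the antibody receptor and its Cd79a and Cd79b chains. A healthy liver holds many resident NK and T cells and fewer B cells, and its hepatocytes make up most of its RNA. In whole tissue, fewer cells of a type and less RNA per cell cannot be told apart.

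Levels are given as a percentage of the 75th percentile of the array's own signal, called P75 below, and each gene's levels are only compared with its own. Arrays had a P75 of 252 to 578 intensity units, and between 54.9% and 68.5% of their probes lay well above background. All 10 hepatocyte markers on the array were well above background on every array. Probes of Fah, Trp53 and Cdkn1a also gave signal on every array. Cdkn1a, the gene of p21, lay at 850 to 1180% of P75 in Fah-/- p21-/- livers and at 1800 to 2130% in Fah-/- livers with no NTBC. Trp53, the gene of p53, lay at 139 to 277% in Fah-/- p53-/- livers and at 148 to 290% in Fah-/- livers. Where those probes lie relative to the deleted parts is not stated, so they do not check the genotype labels. Xist, which marks females, was well above background on all 4 Fah-/- p53-/- arrays with no NTBC and on Fah-/- p21-/- arrays 1 and 2, and the male gene Ddx3y was not. All other arrays had Ddx3y, and 1 of them, Fah-/- array 2 with no NTBC, had both. Sex therefore cannot be told apart from dose or from genotype where Fah-/- p53-/- livers with no NTBC are set against the other doses or against Fah-/- livers. Each dose was scanned on days of its own, so dose and scan day cannot be told apart. At reduced and at full dose each genotype also had its own slide, and the effects of genotype and slide cannot be told apart at those doses. Array 1 of the Fah-/- p53-/- livers with no NTBC stood farthest from its group, and it was the lowest of its group for 18 of 21 T and NK cell genes and 7 of 8 B cell genes, against 39.1% of all features. Values without it are given where it changes a result.

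On Fah-/- p53-/- arrays, 15 to 21 of the 23 T and NK cell genes were well above background with no NTBC, 18 to 20 at reduced dose and 14 to 19 at full dose. On Fah-/- p21-/- arrays with no NTBC the range was 15 to 20. On Fah-/- arrays it was 20 to 22 with no NTBC, 14 to 16 at reduced dose and 12 to 14 at full dose. The Fah-/- arrays with no NTBC thus had higher counts than those at both other doses, with no overlap. The share of all probes above background moved the same way in Fah-/- livers, with 63.5 to 66.7% with no NTBC and 54.9 to 59.9% at full dose, and its part in the counts was not tested. Of the 9 B cell genes, 6 to 8 were above background on every array. A gene was tested if some group had its probe above background on all 4 of its arrays, which left 21 T and NK cell genes and 8 B cell genes. Eomes and Cd247 passed only through the 3 groups with no NTBC. Cd28 and the probes used for Cd8a and Il7r passed only through Fah-/- livers with no NTBC. Prf1 passed only through Fah-/- and Fah-/- p53-/- livers with no NTBC or at reduced dose. Cr2 passed only through the reduced-dose groups, and Cd79a only through Fah-/- p53-/- livers at reduced dose. Cd2 passed only through Fah-/- livers with no NTBC and Fah-/- p53-/- livers at reduced dose. Gzma, Gzmb and Klrd1 passed through other groups, but not through Fah-/- livers at full dose. The filter itself thus favoured higher values of these genes in the groups through which they passed. Klrk1, the gene of the activating NK receptor NKG2D, and Pax5, the factor that fixes B cell identity, were above background on no array. Ncr1, the gene of the NK receptor NKp46, was above background on at most 2 arrays of any group.

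**Figure D1:**
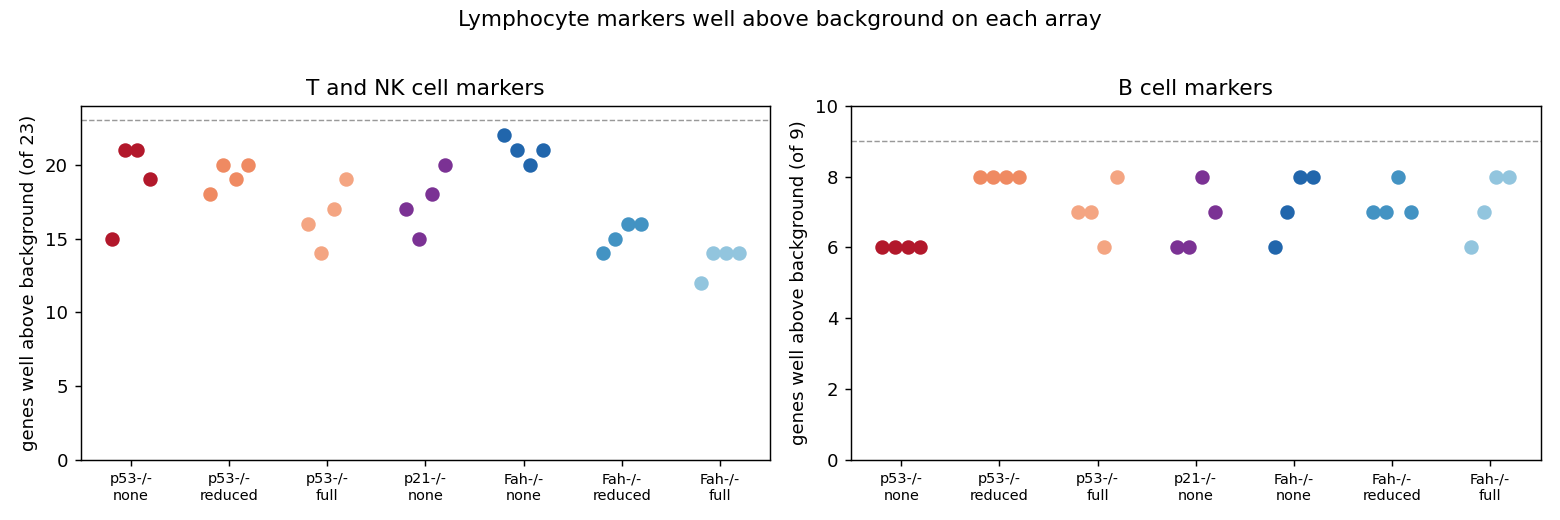
Number of lymphocyte markers well above background on each array (vertical axis), by genotype and NTBC dose (horizontal axis), with 1 point per array. The left panel counts the 23 T and NK cell genes and the right panel the 9 B cell genes, with dashed lines at these totals. The Fah-/- arrays with no NTBC have 20 to 22 T and NK cell genes, above the 12 to 14 at full dose.

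Without NTBC, the T and NK cell genes split. With no NTBC, 6 of the 21 tested were higher and 4 lower in Fah-/- livers than at full dose, at an adjusted p under 0.05 (limma, adjusted over all features). Among all 20311 features 70.9% were called in this comparison, 29.3% higher and 41.6% lower, so the members' share of 10 in 21 was not above the background. In Fah-/- p53-/- livers with no NTBC, 2 of 21 were higher and 11 lower than at full dose, against 69.7% of all features, 29.6% higher and 40.1% lower. The median log2 change of the 21 genes was 0.12 in Fah-/- livers and -0.93 in Fah-/- p53-/- livers, beside -0.167 and -0.144 over all features. At reduced dose, 4 were higher and 4 lower than at full dose in Fah-/- livers (background 39.7%, 17.4% higher and 22.3% lower), and 1 was higher and 2 lower in Fah-/- p53-/- livers (background 39.8%, 20.3% higher and 19.6% lower). Within a genotype, the comparisons of no NTBC and of reduced dose share the full-dose arrays. Groups without overlap were common. Between no NTBC and full dose, 59.9% of all features did not overlap in Fah-/- p53-/- livers and 66.9% in Fah-/- livers. Of the 29 members tested, 15 and 11 did not. Between reduced and full dose the shares were 39.3% and 44.3%, and the members' counts 4 and 10.

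**Figure D2:**
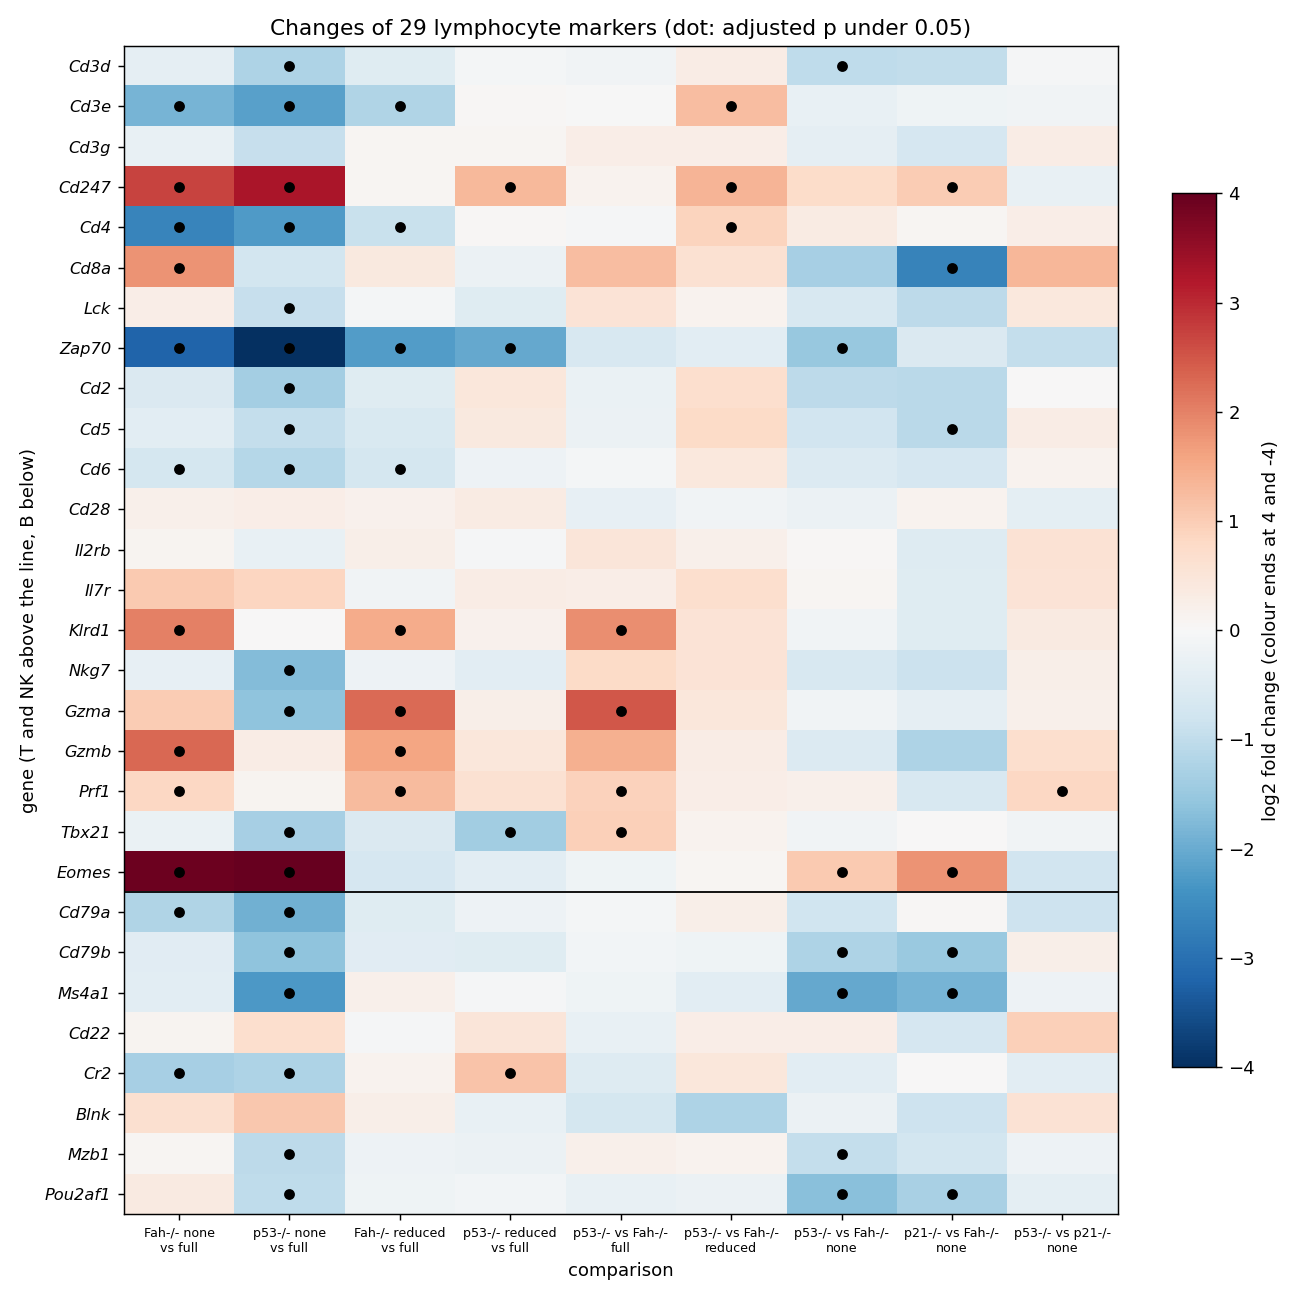
Log2 fold changes (colour, blue lower and red higher in the first-named group) of the 21 T and NK cell genes above the line and the 8 B cell genes below it, in 9 comparisons named under the columns. A dot marks an adjusted p under 0.05. Zap70, Cd3e and Cd4 are blue without NTBC while Eomes and Cd247 are red, and the B cell genes are bluest in the columns with Fah-/- p53-/- or Fah-/- p21-/- livers without NTBC.

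Among the receptor chains, Cd3e, the epsilon chain of the T cell receptor complex, was lower without NTBC in both genotypes. It lay at 8.52, 10.1, 10.8 and 11% of P75 in Fah-/- p53-/- livers with no NTBC, at 51.2, 53.3, 41.1 and 43.5% at reduced dose, and at 47.6, 51.4, 41.8 and 40% at full dose. The Fah-/- livers had it at 11.4, 12.4, 14.3 and 12% with no NTBC, at 16.7, 15.8, 23.1 and 25.7% at reduced dose, and at 45.5, 47.3, 46.4 and 42.7% at full dose. All arrays with no NTBC were below all full-dose arrays, whereas the reduced dose was low in Fah-/- livers alone. With no NTBC the log2 change from full dose was -2.16 ± 0.14 (SE) in Fah-/- p53-/- livers (adjusted p 3.03e-12) and -1.86 ± 0.14 in Fah-/- livers (adjusted p 4.04e-11). With the reduced dose Cd3e fell in Fah-/- livers by 1.19 ± 0.14 on the log2 scale (adjusted p 6.01e-07), and its log2 change was 0.06 ± 0.14 in Fah-/- p53-/- livers (adjusted p 0.743). The difference between these responses, 1.26 ± 0.19, passed the test (adjusted p 0.000296), but with another background correction (normexp) it was 0.57 and did not (adjusted p 0.353). Of the 21 T and NK cell genes 2, Cd3e and Cd4, differed in this way between genotypes, both higher, beside 10.4% of all features, 6.74% higher and 3.62% lower.

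The other chains of the same complex did not share this pattern. Cd3d, the delta chain, lay at 17.5 to 31.1% of P75 in Fah-/- livers with no NTBC and at 24.9 to 46.7% at full dose, which overlap (log2 change -0.36 ± 0.34, adjusted p 0.345). Cd3g, the gamma chain, had a log2 change of -0.29 ± 0.46 in the same comparison (adjusted p 0.575). Cd3d in Fah-/- p53-/- livers with no NTBC lay at 5.07, 16.9, 20.8 and 11.1%, all below its 25.1 to 37.8% at full dose, and it fell by 1.25 ± 0.34 on the log2 scale (adjusted p 0.00215). Without array 1 the Cd3d change was -0.84 ± 0.29 and still passed (adjusted p 0.0142). Within groups, the deviations of Cd3e from the group mean correlated with those of Cd4 at 0.44 over 28 arrays, and with those of Cd3d at 0.27, or 0.1 without array 1. Such deviations share each array's scaling, and the pairs quoted were chosen after their values were seen.

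Cd4, the coreceptor of helper T cells, followed Cd3e. It lay at 1.92, 1.48, 2.77 and 2.32% of P75 in Fah-/- p53-/- livers with no NTBC, at 9.06 to 11.8% at reduced dose and at 8.06 to 12.1% at full dose. Cd4 in Fah-/- livers lay at 1.64, 1.83, 1.54 and 1.59% with no NTBC, at 5 to 6.24% at reduced dose and at 7.95 to 11.7% at full dose. No array with no NTBC reached the range of the full-dose arrays, and in Fah-/- livers the 3 doses did not overlap. The log2 change from full dose with no NTBC was -2.26 ± 0.17 in Fah-/- p53-/- livers (adjusted p 4.02e-11) and -2.64 ± 0.17 in Fah-/- livers (adjusted p 3.72e-12). At reduced dose it was 0.05 ± 0.17 in Fah-/- p53-/- livers (adjusted p 0.827) and -0.88 ± 0.17 in Fah-/- livers (adjusted p 0.000246), with a difference of 0.93 ± 0.24 between the responses (adjusted p 0.0148). With normexp the Fah-/- change was -0.54 (adjusted p 0.435) and the Cd4 difference turned to -0.4 (adjusted p 0.582). Dim signals also read lower on arrays with no NTBC: the 7550 probes above background on no array had a median log2 change of -0.93 in Fah-/- p53-/- livers and -1.21 in Fah-/- livers against full dose. The Cd4 changes exceeded these shifts.

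Cd8a, the coreceptor of cytotoxic T cells, lay at 6.22, 17.7, 7.91 and 11.9% of P75 in Fah-/- livers with no NTBC, against 1.75, 1.74, 6.8 and 3.34% at full dose. It was above background on all 4 arrays with no NTBC and on 1 of 4 at full dose, and the ranges overlapped. The group with no NTBC is the 1 group through which the probe used for Cd8a passed the filter. Cd8a rose by a log2 of 1.81 ± 0.75 (adjusted p 0.0362). Its dimmer second probe, which passed through Fah-/- p53-/- livers with no NTBC, gave 0.62 ± 0.39 (adjusted p 0.152). Leaving out Fah-/- full-dose array 1 or 2, or no-NTBC array 2 or 4, ended the call. The Cd8a change with no NTBC in Fah-/- p53-/- livers was -0.75 ± 0.75 (adjusted p 0.381), and the difference between genotypes was -2.56 ± 1.07 (adjusted p 0.138).

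**Figure D3:**
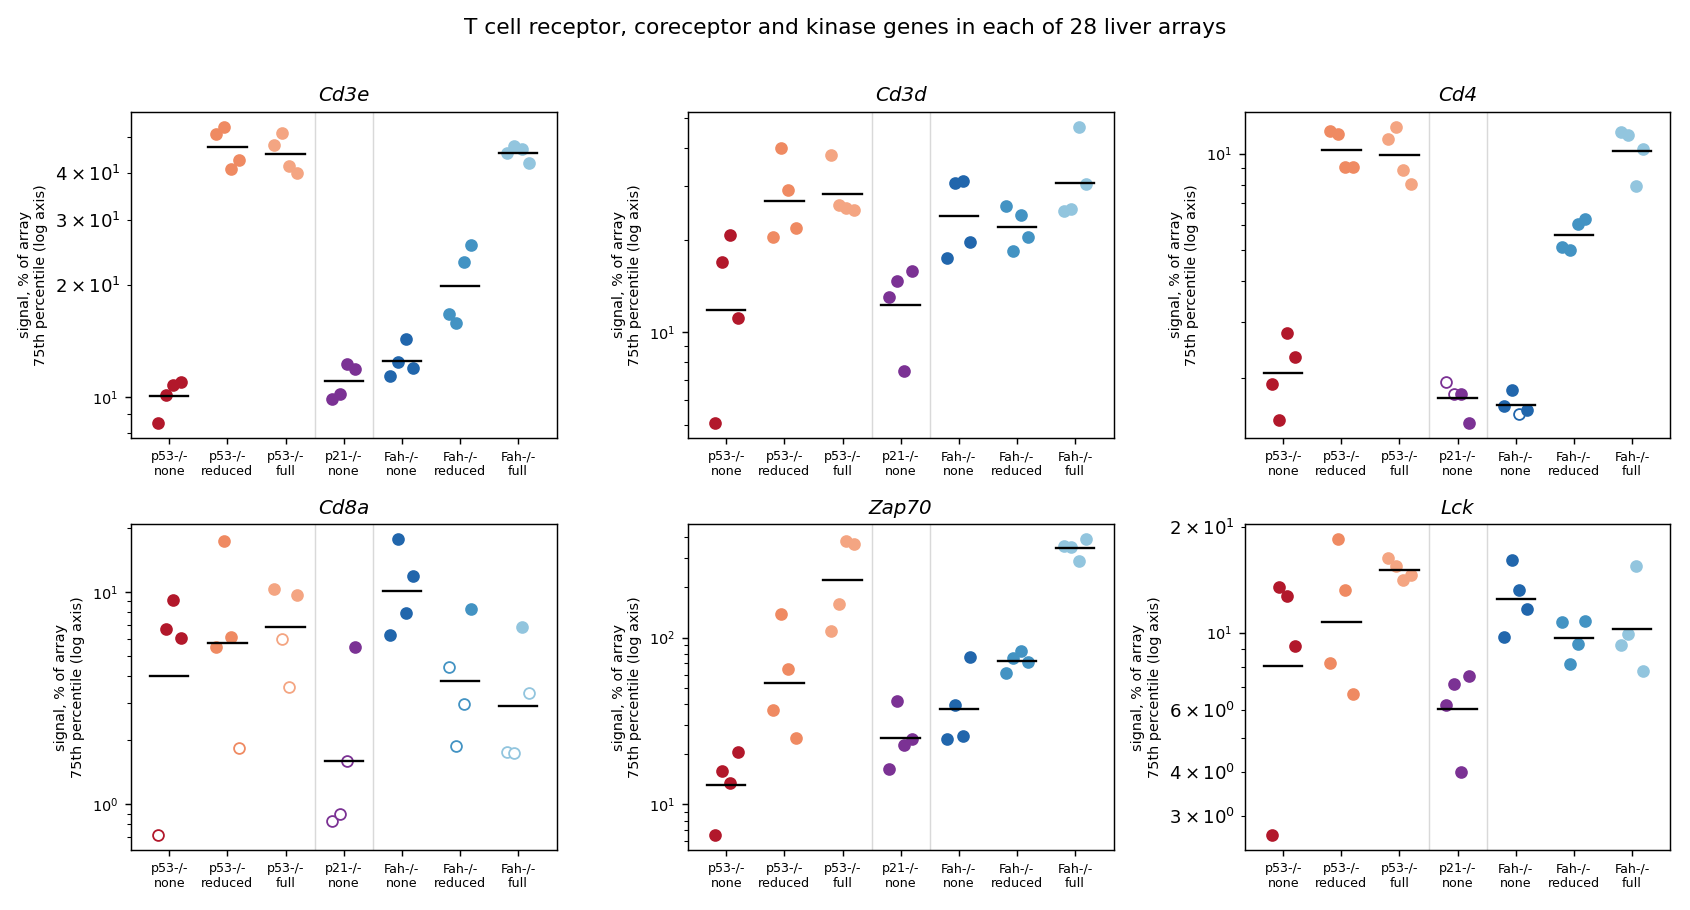
Signal of 6 T cell genes in each array, in percent of the array's 75th percentile on a log axis, by genotype and NTBC dose. Filled points were well above background and open points were not, each bar is the geometric mean of 4 arrays, and p53-/- and p21-/- on the axis stand for the double mutants. Cd3e is at 8.52 to 14.3% on all arrays with no NTBC and at 40 to 51.4% on all full-dose arrays, while Cd3d and Lck overlap between doses in Fah-/- livers.

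Of the receptor kinases, Zap70, which docks on the phosphorylated zeta chain, had the largest fall of the list. It lay at 6.55, 15.9, 13.4 and 20.7% of P75 in Fah-/- p53-/- livers with no NTBC, at 36.9, 138, 64.8 and 25% at reduced dose, and at 110, 160, 379 and 365% at full dose. Zap70 in Fah-/- livers lay at 24.7, 39.5, 25.6 and 76.6% with no NTBC, at 61.5 to 83.3% at reduced dose, and at 287 to 390% at full dose. Arrays with no NTBC and full-dose arrays did not overlap in either genotype, and at reduced dose the Fah-/- p53-/- arrays overlapped their full-dose arrays. The log2 change from full dose with no NTBC was -4.09 ± 0.47 in Fah-/- p53-/- livers (adjusted p 4.86e-08) and -3.21 ± 0.47 in Fah-/- livers (adjusted p 1.93e-06). At reduced dose it was -2.05 ± 0.47 in Fah-/- p53-/- livers (adjusted p 0.00132) and -2.25 ± 0.47 in Fah-/- livers (adjusted p 0.000556). Lck, the kinase that starts the signal, had a log2 change of 0.28 ± 0.37 with no NTBC in Fah-/- livers (adjusted p 0.51). Lck fell in Fah-/- p53-/- livers by 0.91 ± 0.37 (adjusted p 0.0333), but by 0.38 ± 0.28 without array 1, which did not pass (adjusted p 0.239), and the call also ended without full-dose array 1, 2 or 4.

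Hepatocyte markers were also lower at the lower doses. Their summed level was 69700 to 74800% of P75 in Fah-/- p53-/- livers with no NTBC, 165000 to 191000% at reduced dose and 303000 to 322000% at full dose. For Fah-/- livers it was 70300 to 88000% with no NTBC, 154000 to 184000% at reduced dose and 289000 to 335000% at full dose. Of the 10 markers, 9 were lower with no NTBC than at full dose in Fah-/- p53-/- livers and 10 in Fah-/- livers. The shares of all features called lower were 40.1% and 41.6%. In Fah-/- livers they fell over the doses along with Zap70, Cd3e and Cd4. The reduced dose in Fah-/- p53-/- livers went with a lower hepatocyte sum and lower Zap70, but not with a called change of Cd3e or Cd4. The part of these markers in the levels of the 3 genes was not tested.

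The surface molecules of T cell adhesion and tuning moved less. Cd6, a receptor of T cell contacts, fell with no NTBC by 1.15 ± 0.28 in Fah-/- p53-/- livers (adjusted p 0.000819) and by 0.69 ± 0.28 in Fah-/- livers (adjusted p 0.0324). The Fah-/- arrays overlapped, at 22.9 to 44.1% with no NTBC and 41.1 to 59.8% at full dose, and leaving out any of 4 arrays ended that call (the highest adjusted p was 0.101). A dimmer Cd6 probe, for the transcript NM_009852, gave a larger change there, -2.26 ± 0.27 (adjusted p over probes 7.86e-08). At reduced dose Cd6 fell in Fah-/- livers by 0.7 ± 0.28 (adjusted p 0.0481), and no fit with 1 array left out kept it. The dimmer probe gave -1.53 ± 0.27 there (adjusted p over probes 9.59e-05) and 0.17 ± 0.27 in Fah-/- p53-/- livers (0.65), with a difference between the responses of 1.69 ± 0.38 (0.00607), while the brighter probe gave a difference of 0.51 ± 0.4 (adjusted p 0.449). Cd5, which dampens receptor signals, had 9.26 to 19.8% with no NTBC and 17 to 21.7% at full dose in Fah-/- livers (log2 change -0.42 ± 0.32, adjusted p 0.241). Cd5 and the adhesion receptor Cd2 fell in Fah-/- p53-/- livers with no NTBC, by 0.96 ± 0.32 (adjusted p 0.0101) and by 1.35 ± 0.39 (adjusted p 0.00361). Without array 1 the Cd5 change was -0.53 ± 0.26 (adjusted p 0.07), and that of Cd2 was -0.88 ± 0.34 (adjusted p 0.0248), while in the authors' deposited table of values Cd2 had -0.14 (adjusted p 0.0798). Cd2 was above background on 2 of 4 arrays in both of these groups, and their ranges overlapped. Probes above background on no array shifted by -0.93 in this comparison over all arrays. The costimulatory receptor Cd28 stayed dim, with 1.04 to 2.73% of P75 on all arrays, and was not called in any comparison.

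The cytokine receptors gave no call. Il2rb, the interleukin 2 and 15 receptor chain of NK and memory T cells, lay between 8.98 and 30.6% of P75 on all 28 arrays. Il7r, the interleukin 7 receptor of naive and memory T cells, was above background on 4 of 4 Fah-/- arrays with no NTBC, at 3.58 to 5.71%, and on none of 4 at full dose. Its log2 change of 1.04 ± 0.72 did not pass (adjusted p 0.201), and 1 Fah-/- p21-/- array read 38.3% while the other three read 0.942 to 1.93%.

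The killing genes were lowest, by group mean, in Fah-/- livers at full dose. Gzma, Gzmb, Prf1 and Klrd1 did not pass the filter through that group, so the filter favoured this pattern. Gzma, the tryptase-like granzyme A, was not well above background there, at 2.57, 2.65, 4.35 and 2.64% of P75. At reduced dose Gzma lay at 19.4, 15.5, 12.1 and 11.5% in Fah-/- livers, with no overlap, at least 4.8-fold higher (adjusted p 0.00187). An at-least fold compares the bright group with, on each dim array, the higher of the gene's own signal and the lowest signal of any probe above background there. With no NTBC Gzma lay at 7.77, 8.7, 4.27 and 4.54% in Fah-/- livers, and the change against full dose did not pass (log2 change 1.02 ± 0.54, adjusted p 0.0951). Gzma in Fah-/- p53-/- livers lay at 1.02, 11, 9.84 and 7.75% with no NTBC, at 13 to 35.2% at reduced dose and at 9.86 to 35.3% at full dose. It fell there with no NTBC by 1.61 ± 0.54 (adjusted p 0.0109), but by 0.8 ± 0.39 without array 1, which did not pass (adjusted p 0.0719), and the call also ended without full-dose array 4. The Gzma response to no NTBC differed between genotypes by -2.62 ± 0.76 (adjusted p 0.0314), and that call ended in 11 of 25 alternatives. It was the 1 such call among the 21 T and NK cell genes, beside 9.11% of all features, 4.86% higher and 4.25% lower.

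Gzmb, the apoptosis-inducing granzyme B, and Prf1, the pore-former perforin, also had their lowest group mean in Fah-/- livers at full dose. Gzmb in Fah-/- livers lay at 11.7, 31.6, 13 and 13.1% of P75 with no NTBC, at 7.29 to 12% at reduced dose and at 1.69, 2.38, 3.87 and 7.04% at full dose. It rose against full dose by 2.29 ± 0.57 with no NTBC (adjusted p 0.00108) and by 1.59 ± 0.57 at reduced dose (adjusted p 0.0305), and neither dose overlapped the full dose. Leaving out Fah-/- full-dose array 1 or 2, or reduced-dose array 1, 3 or 4, ended the second call. Prf1 was not well above background on any full-dose array, at 1.96 to 3.79%. It was at least 2.37-fold higher at reduced dose (5.24 to 7.64%, adjusted p 0.000351) and at least 1.77-fold higher with no NTBC (3.82 to 5.5%, adjusted p 0.00499). Prf1 passed the filter only through Fah-/- and Fah-/- p53-/- livers at these lower doses. Neither gene was called at either dose in Fah-/- p53-/- livers. Their log2 changes with no NTBC were 0.31 ± 0.57 for Gzmb (adjusted p 0.637) and 0.1 ± 0.25 for Prf1 (adjusted p 0.74).

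Of the NK receptor genes, Klrd1, which encodes the CD94 chain, followed the killing genes. It lay at 18.5, 18.4, 9.74 and 14.3% of P75 in Fah-/- livers with no NTBC, at 8.02 to 11.4% at reduced dose and at 2.3, 4.63, 5.74 and 2.93% at full dose. The full-dose arrays lay below the others of this genotype, and Klrd1 rose by 2.01 ± 0.49 with no NTBC (adjusted p 0.000823) and by 1.47 ± 0.49 at reduced dose (adjusted p 0.0192). Leaving out full-dose array 1 or 4 ended the second call. With normexp no rise of Gzma, Gzmb, Klrd1 or Prf1 in Fah-/- livers was kept, and in the authors' deposited values those of Gzmb and Klrd1 at reduced dose and of Prf1 at both doses did not pass. Nkg7, a granule protein of NK and cytotoxic T cells, was not called in Fah-/- livers, with 23.5 to 59.8% with no NTBC and 35.9 to 64.4% at full dose. Nkg7 fell in Fah-/- p53-/- livers with no NTBC to 4.78, 49.3, 41.9 and 28.9%, against 66.4 to 99.3% at full dose, a log2 change of -1.74 ± 0.48 (adjusted p 0.00264), and of -0.98 ± 0.32 without array 1 (adjusted p 0.00939).

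The promoters of the granzyme and perforin genes are shown because these genes rose together at reduced dose in Fah-/- livers, and that of Eomes because its level changed most. Each runs from 250 bases before the start of the gene to 50 after it, as RefSeq gives it for GRCm38.p6, a later build than that of the arrays. Capitals mark the RUNX motif TGTGGT or its reverse complement ACCACA.
Gzma, chr13:113100932-113101231, minus strand: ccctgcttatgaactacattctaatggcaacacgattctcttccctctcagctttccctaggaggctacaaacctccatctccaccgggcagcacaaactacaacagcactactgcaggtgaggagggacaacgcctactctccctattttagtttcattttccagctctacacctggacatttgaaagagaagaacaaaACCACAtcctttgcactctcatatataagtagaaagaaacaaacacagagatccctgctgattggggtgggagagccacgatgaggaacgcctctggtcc
Gzmb, chr14:56262285-56262584, minus strand: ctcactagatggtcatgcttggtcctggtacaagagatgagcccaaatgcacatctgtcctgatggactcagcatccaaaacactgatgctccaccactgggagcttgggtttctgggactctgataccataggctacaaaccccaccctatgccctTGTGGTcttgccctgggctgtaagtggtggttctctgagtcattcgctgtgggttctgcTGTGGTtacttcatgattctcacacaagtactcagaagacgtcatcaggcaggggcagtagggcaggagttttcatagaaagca
Prf1, chr10:61297586-61297885, plus strand: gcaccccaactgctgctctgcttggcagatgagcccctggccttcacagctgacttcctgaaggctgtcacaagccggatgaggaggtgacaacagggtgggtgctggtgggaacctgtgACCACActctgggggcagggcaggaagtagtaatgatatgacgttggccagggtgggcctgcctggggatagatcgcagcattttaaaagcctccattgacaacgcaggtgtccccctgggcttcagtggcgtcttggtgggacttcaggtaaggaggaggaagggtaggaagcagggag
Eomes, chr9:118477939-118478238, plus strand: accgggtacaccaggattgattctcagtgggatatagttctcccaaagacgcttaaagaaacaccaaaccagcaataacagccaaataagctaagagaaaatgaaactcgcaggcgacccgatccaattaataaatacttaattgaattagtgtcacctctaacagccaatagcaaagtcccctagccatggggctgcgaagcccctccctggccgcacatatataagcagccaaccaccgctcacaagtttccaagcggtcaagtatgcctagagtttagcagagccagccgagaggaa
The motif was found once in the windows of Gzma and Prf1, in 2 places in that of Gzmb, and not in these letters in that of Eomes. Of the 23 members with a window, 8 held it, and so did 16.8% of 32851 windows of all genes. The T-box motif GGTGTG was in 3 of 23 members' windows and in 19% of all, the octamer ATGCAAAT in 1 of 23 (Blnk) and in 1.74% of all, and the p53 half-site in 1 of 23 (Zap70) and in 8.36% of all, each searched on both strands.

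Eomes, a T-box factor of NK cells and cytotoxic T cells, changed most of all members. It was not well above background on any array at reduced or full dose, at 0.984 to 3.02% of P75. With no NTBC it lay at 43.9, 39.8, 98.3 and 59.2% in Fah-/- p53-/- livers, at 168, 65, 72.6 and 105% in Fah-/- p21-/- livers, and at 29.4, 29.9, 43.5 and 14.4% in Fah-/- livers. Every array with no NTBC was thus far above every other array. Against full dose Eomes was at least 35.1-fold higher in Fah-/- p53-/- livers (adjusted p 5.8e-12) and at least 15-fold higher in Fah-/- livers (adjusted p 5.94e-10). With normexp these log2 changes were 0.73 (adjusted p 0.0655) and 0.66 (adjusted p 0.0999). Tbx21, the gene of T-bet, did not share the rise. It fell in Fah-/- p53-/- livers by 1.34 ± 0.3 with no NTBC (adjusted p 0.000404) and by 1.39 ± 0.3 at reduced dose (adjusted p 0.000837), against a full-dose range of 15.3 to 40.4% of P75. Its log2 change in Fah-/- livers with no NTBC was -0.26 ± 0.3 (adjusted p 0.446).

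Cd247, the zeta chain through which T cell and some NK receptors signal, was read by 3 probes that disagreed. The brightest, for the transcript NM_001113391, lay at 11.4 to 23.6% of P75 in Fah-/- p53-/- livers with no NTBC, at 15.4 to 25.5% in Fah-/- p21-/- livers and at 7.19 to 15.2% in Fah-/- livers, and at 1.34 to 2.94% on all full-dose arrays, none of them above background. It was at least 9.67-fold higher with no NTBC than at full dose in Fah-/- p53-/- livers (adjusted p 2.7e-09) and at least 6.37-fold in Fah-/- livers (adjusted p 6.4e-08). At reduced dose it was at least 2.45-fold higher in Fah-/- p53-/- livers, with 3 of 4 arrays above background (adjusted p 0.00225), and above background on no Fah-/- array. That Cd247 change was 0.12 in the authors' deposited table of values (adjusted p 0.234), and it turned to -1.09 with normexp (adjusted p 0.0166). Both probes of another transcript, NM_031162, were above background on at most 1 array of any group, at 0.563 to 6.65%. With normexp the change of the brightest probe turned, to -0.24 (adjusted p 0.545) in Fah-/- p53-/- livers and -0.1 (adjusted p 0.821) in Fah-/- livers.

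**Figure D4:**
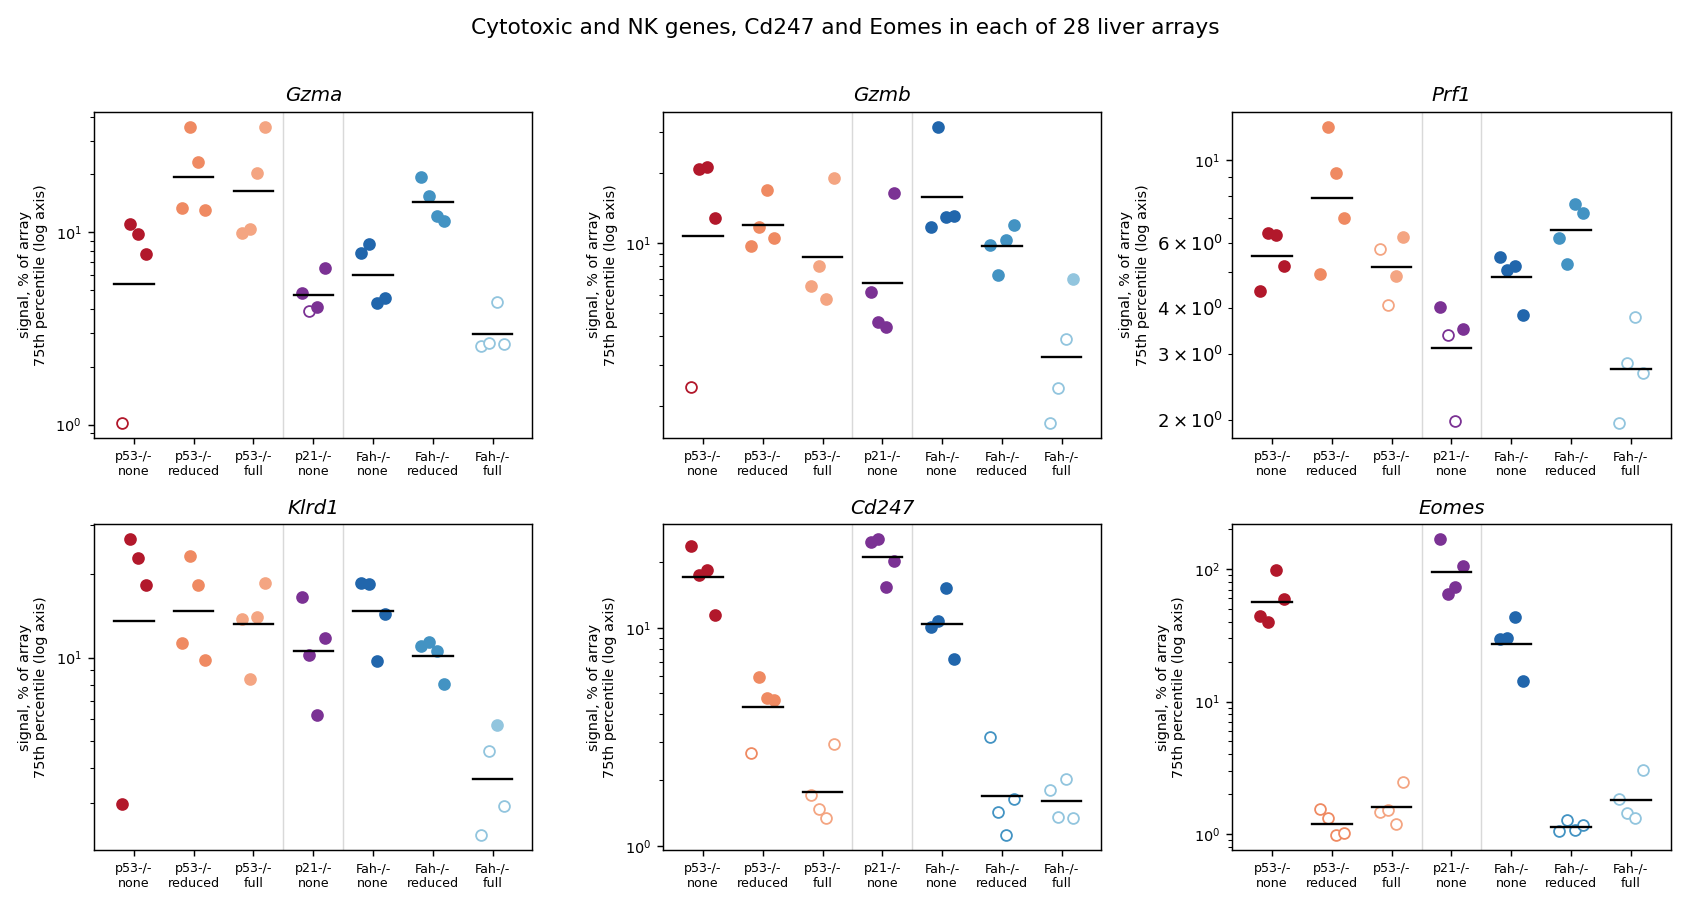
Signal of 6 genes of killing, NK receptors, signalling and transcription in each array, in percent of the array's 75th percentile on a log axis, by genotype and NTBC dose. Filled points were well above background and open points were not, each bar is the geometric mean of 4 arrays, and p53-/- and p21-/- on the axis stand for the double mutants. Eomes and Cd247 stand above background in the 3 groups with no NTBC, while Gzma, Gzmb, Prf1 and Klrd1 have their lowest means in Fah-/- livers at full dose, and array 1 of Fah-/- p53-/- livers with no NTBC is low for Gzma, at 1.02%, Gzmb, at 2.4%, and Klrd1, at 2.98%.

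With no NTBC, 6 of the 8 tested B cell genes were lower than at full dose in Fah-/- p53-/- livers and 2 of 8 in Fah-/- livers. None was higher. Over all features 69.7% were called in Fah-/- p53-/- livers, 40.1% lower, and 70.9% in Fah-/- livers, 41.6% lower. The first count was near the background of calls in either direction but above that of lower calls, and the second was below both. The median log2 changes were -1.14 and -0.17, beside -0.144 and -0.167 over all features. At reduced dose 1 of 8, Cr2, was higher in Fah-/- p53-/- livers, and none was called in Fah-/- livers by limma, where none had an unadjusted p under 0.05 either.

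Cd79b, a signalling chain of the B cell receptor, lay at 11.2, 75.1, 52.8 and 37.8% of P75 in Fah-/- p53-/- livers with no NTBC, against 96.8 to 132% at full dose. All 4 arrays were below the full-dose arrays, and Cd79b fell by 1.61 ± 0.38 on the log2 scale (adjusted p 0.000627), and by 1.04 ± 0.27 without array 1 (adjusted p 0.00186). Cd79b in Fah-/- livers lay at 56.6 to 103% with no NTBC and at 86.9 to 169% at full dose (log2 change -0.46 ± 0.38, adjusted p 0.281). Its partner Cd79a was above background on no Fah-/- p53-/- array with no NTBC, at 1.29 to 1.79%, and on 3 of 4 at full dose, at 4.14 to 8.06%, so it was at least 3.82-fold lower with no NTBC (adjusted p 0.00201). In the authors' deposited table of values this Cd79a change was -0.21 and did not pass (adjusted p 0.161). Cd79a also fell in Fah-/- livers with no NTBC, by 1.21 ± 0.52 (adjusted p 0.0406), and leaving out full-dose array 4, which read 19.1%, ended the call (adjusted p 0.224), as did leaving out array 1, 3 or 4 with no NTBC. That fall equals the shift of the never-detected probes.

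Ms4a1, the gene of the B cell surface protein CD20, lay at 1.13, 5.88, 6.17 and 5.88% of P75 in Fah-/- p53-/- livers with no NTBC, at 15 to 22.9% at reduced dose and at 13.9 to 27.5% at full dose. No array with no NTBC came near the other doses, and Ms4a1 fell by 2.3 ± 0.41 (adjusted p 3.24e-05), and by 1.7 ± 0.31 without array 1 (adjusted p 4.55e-05). Ms4a1 in Fah-/- livers lay at 11.8 to 21.5% with no NTBC, at 17.1 to 44.5% at reduced dose and at 18 to 29.9% at full dose, which overlap. The genotypes differed in the Ms4a1 response to no NTBC by -1.88 ± 0.59 (adjusted p 0.0451). The call on this difference ended in 15 of 25 alternatives, among them leaving out array 1 of the Fah-/- p53-/- livers with no NTBC.

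The transcriptional coactivator Pou2af1 and the secretory chaperone Mzb1 followed. Pou2af1 lay at 4.28, 6.67, 9.37 and 6.33% in Fah-/- p53-/- livers with no NTBC, against 9.59 to 17.1% at full dose, and fell by 1.02 ± 0.31 (adjusted p 0.0052). Pou2af1 in Fah-/- livers lay at 18.3 to 22.8% with no NTBC and 13.1 to 22.7% at full dose, and the difference between the responses was -1.37 ± 0.43 (adjusted p 0.0487), a call that ended in 18 of 26 alternatives. Mzb1 lay at 2.7 to 5.82% in Fah-/- p53-/- livers with no NTBC, below the 7.86 to 11.2% at full dose, and fell by 1.05 ± 0.26 (adjusted p 0.000991). Cr2, the complement receptor that lowers the threshold of B cells, fell with no NTBC by 1.23 ± 0.28 in Fah-/- p53-/- livers (adjusted p 0.000396) and by 1.34 ± 0.28 in Fah-/- livers (adjusted p 0.000166), and neither call was kept in the authors' deposited table of values (adjusted p 0.133 and 0.0567). Those Cr2 arrays lay at 1.14 to 3.26% and 2.17 to 3.08%, and the falls were about as large as the shift of the never-detected probes given with Cd4. At reduced dose Cr2 lay at 8.6 to 10.4% in Fah-/- p53-/- livers, against 2.38 to 6.01% at full dose, and rose by 1.13 ± 0.28 (adjusted p 0.00235). The reduced-dose groups are the only ones through which Cr2 passed the filter. With normexp the Cr2 change turned to -0.94 (adjusted p 0.0409).

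Cd22, an inhibitory receptor of B cells, and Blnk, the adaptor that links their receptor to its enzymes, did not fall. Blnk lay at 28.6, 315, 216 and 280% of P75 in Fah-/- p53-/- livers with no NTBC, against 54.9 to 83.6% at full dose, so 3 arrays were above that range and array 1 below it. The Blnk change was 1.09 ± 0.54 over all arrays (adjusted p 0.078) and 1.89 ± 0.39 without array 1 (adjusted p 0.000193). The Cd22 change was 0.67 ± 0.32 (adjusted p 0.0635) and 1.09 ± 0.26 without array 1 (adjusted p 0.000675). Their deviations within groups correlated at 0.92 over 28 arrays and 0.85 without array 1. Macrophage markers rose in the same comparison, with 11 of 14 called higher, beside 29.6% of all features. Their summed level was 13300 to 25800% of P75 with no NTBC and 5940 to 10900% at full dose. The part of these markers in the Blnk and Cd22 levels was not tested.

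**Figure D5:**
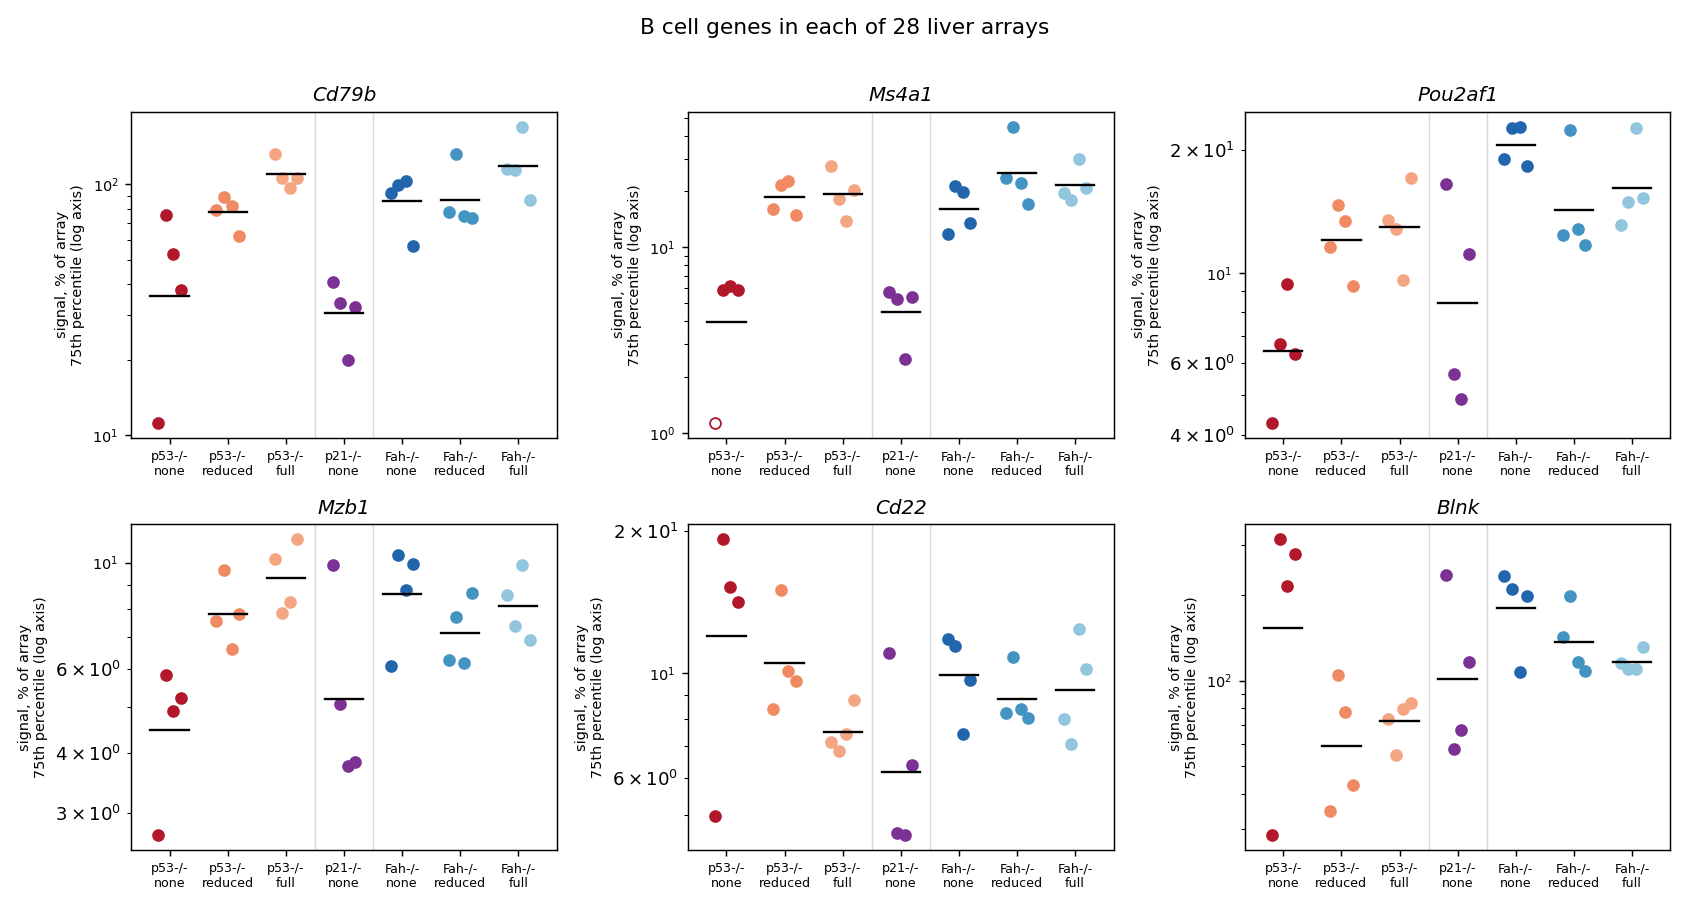
Signal of 6 B cell genes in each array, in percent of the array's 75th percentile on a log axis, by genotype and NTBC dose. Filled points were well above background and open points were not, each bar is the geometric mean of 4 arrays, and p53-/- and p21-/- on the axis stand for the double mutants. Ms4a1 is at 1.13 to 6.17% in Fah-/- p53-/- and Fah-/- p21-/- livers with no NTBC and at 11.8 to 44.5% elsewhere, while Blnk is at 216% or more on 3 of 4 Fah-/- p53-/- arrays with no NTBC.

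At full dose, several killing and NK genes were higher in Fah-/- p53-/- than in Fah-/- livers. Gzma and Klrd1 passed the filter through the Fah-/- p53-/- group but not through the Fah-/- group, and Prf1 through neither. Of 21 T and NK cell genes 4 were called higher and none lower, beside 13.9% of all features called, 6.35% higher and 7.59% lower. The 2 groups did not overlap in 5 of 29 members and in 23.2% of all features. Gzma lay at 9.86, 10.4, 20.4 and 35.3% of P75 in Fah-/- p53-/- livers, all above the 2.57 to 4.35% of Fah-/- livers, and was at least 5.55-fold higher (adjusted p 0.00303). Klrd1, at 8.4 to 18.5% against 2.3 to 5.74%, was higher by a log2 of 1.85 ± 0.49 (adjusted p 0.0128), and by 0.99 with normexp, which did not pass (adjusted p 0.0526). Prf1 was at least 1.89-fold higher, with 2 of 4 Fah-/- p53-/- arrays above background (adjusted p 0.0151), a call that ended without Fah-/- array 1, in the authors' deposited table of values (0.09, adjusted p 0.422) and with normexp (0.76, adjusted p 0.127), and the Tbx21 arrays overlapped (log2 change 0.94 ± 0.3, adjusted p 0.0385). Leaving out any of 5 arrays ended the Tbx21 call. Gzmb had a log2 change of 1.43 ± 0.57, which did not pass (adjusted p 0.1). Of the listed NK genes that are no members, Klrc1, whose product pairs with that of Klrd1, was higher by 2.58 ± 0.59 (adjusted p 0.00473) and the receptor gene Cd244a by 2.27 ± 0.54 (adjusted p 0.00613), 2 of 12 tested. None of the 8 tested B cell members was called by limma, and none had an unadjusted p under 0.05. Of 16 tested B cell genes outside the list, 1 was called higher and 1 lower.

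At reduced dose, 3 of 21 T and NK cell genes were higher in Fah-/- p53-/- livers than in Fah-/- livers (background 15.6%, 9.84% higher and 5.8% lower). They were Cd3e by 1.24 ± 0.14 (adjusted p 2.83e-06) and Cd4 by 0.89 ± 0.17 (adjusted p 0.00101), neither with overlap, and Cd247, at least 2.51-fold (adjusted p 0.00488). At this dose the genotypes did not overlap in 5 of 29 members and in 24% of all features. No B cell gene was called by limma, and 1 had an unadjusted p under 0.05. With normexp none of the 3 calls was kept.

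With no NTBC, several B cell genes were lower in both double mutants than in Fah-/- livers, and these comparisons share the Fah-/- arrays. In Fah-/- p53-/- livers 4 of 8 were lower (background 14.2%, 7.65% higher and 6.6% lower): Ms4a1, with a log2 change of -2.04 ± 0.41 (adjusted p 0.00219), Pou2af1, with -1.68 ± 0.31 (adjusted p 0.000867), Cd79b, with -1.25 ± 0.38 (adjusted p 0.0295) and Mzb1, with -0.95 ± 0.26 (adjusted p 0.0173). In Fah-/- p21-/- livers 3 of 8 were lower (background 7.51%, 3.93% higher and 3.58% lower). In them Ms4a1 lay at 5.72, 5.27, 2.5 and 5.41% of P75, against 11.8, 21.5, 19.9 and 13.5% in Fah-/- livers, a log2 change of -1.85 ± 0.41 (adjusted p 0.00839). Cd79b, at 19.9 to 40.8% against 56.6 to 103%, fell by 1.48 ± 0.38 (adjusted p 0.0185), and Pou2af1 by 1.29 ± 0.31 (adjusted p 0.0125). Ms4a1 did not overlap in either comparison, and the Fah-/- p21-/- call of Cd79b ended without array 3 of that group or Fah-/- array 2. Without overlap were 17.1% of all features for Fah-/- p53-/- and 12.3% for Fah-/- p21-/- livers, beside 6 and 11 of 29 members. Without array 1 of Fah-/- p53-/- livers, Ms4a1 and Pou2af1 were still lower than in Fah-/- livers, with changes of -1.44 ± 0.31 (adjusted p 0.00303) and -1.49 ± 0.32 (adjusted p 0.00294), while Cd79b (adjusted p 0.0885) and Mzb1 (adjusted p 0.0581) no longer passed.

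No call between genotypes with no NTBC was kept within slides. On the slide that held 2 arrays of both groups, the Ms4a1 change was -1.41 ± 0.55 in Fah-/- p53-/- against Fah-/- livers (adjusted p 0.195) and -2.15 ± 0.55 in Fah-/- p21-/- against Fah-/- livers (adjusted p 0.06). For Pou2af1 the same values were -1.43 ± 0.44 (adjusted p 0.0889) and -1.47 ± 0.44 (adjusted p 0.116), so the directions were kept. With slide as a fixed block over the 12 arrays with no NTBC, the Ms4a1 changes were -2.02 ± 0.61 (adjusted p 0.131) and -1.54 ± 0.61 (adjusted p 0.338). The Fah-/- p53-/- arrays were all female by Xist and the Fah-/- arrays had Ddx3y. Against the Fah-/- livers, the male Fah-/- p21-/- arrays 3 and 4 alone gave a Ms4a1 change of -2.14 ± 0.52 (adjusted p 0.0252).

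Against Fah-/- livers with no NTBC, 3 of 21 T and NK cell genes were called in Fah-/- p53-/- livers, 1 higher and 2 lower. This was about the background share of 14.2% (7.65% higher and 6.6% lower). In Fah-/- p21-/- livers 4 of 21 were called, 2 higher and 2 lower (background 7.51%, 3.93% higher and 3.58% lower). Eomes was higher in both double mutants than in Fah-/- livers, by 1.05 ± 0.34 in Fah-/- p53-/- (adjusted p 0.0407) and by 1.81 ± 0.34 in Fah-/- p21-/- livers (adjusted p 0.00233). On the shared slides these changes were 1.36 ± 0.47 (adjusted p 0.134) and 1.8 ± 0.47 (adjusted p 0.0656), and the Fah-/- p53-/- call ended without array 3 or 4 of that group or Fah-/- array 1, 2 or 4. Zap70 was lower in Fah-/- p53-/- livers, with a change of -1.51 ± 0.47 (adjusted p 0.0329), and so was Cd3d, with -1.01 ± 0.34 (adjusted p 0.0457), and neither passed without array 1. In Fah-/- p21-/- livers Cd8a lay at 0.827, 0.892, 1.59 and 5.49% of P75, with 1 array above background. The Fah-/- livers with no NTBC are the 1 group through which the probe used for Cd8a passed the filter. Against them Cd8a was lower in Fah-/- p21-/- livers, with a change of -2.66 ± 0.75 (adjusted p 0.0326). Its second probe gave -1.13 ± 0.39 (adjusted p 0.0766), and leaving out array 1, 2 or 3 of that group or Fah-/- array 2 or 4 ended the call. Cd5 was lower there, with a change of -1.08 ± 0.32 (adjusted p 0.0387), and Cd247 higher by 1.02 ± 0.31 (adjusted p 0.0487). The Cd5 call ended in 13 of 21 alternatives and the Cd247 call in 16 of 20, each including 6 fits that leave out 1 array.

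Between the double mutants, 1 of 21 T and NK cell genes, Prf1, was higher in Fah-/- p53-/- than in Fah-/- p21-/- livers (log2 change 0.82 ± 0.25, adjusted p 0.0332), beside 11% of all features, 5.04% higher and 5.96% lower. Prf1 lay at 4.44 to 6.39% of P75 in Fah-/- p53-/- livers and at 1.98 to 4.02% in Fah-/- p21-/- livers, and the call ended without Fah-/- p53-/- array 2, 3 or 4 or Fah-/- p21-/- array 3. No B cell gene was called by limma, and 1 had an unadjusted p under 0.05. Without array 1 of the Fah-/- p53-/- livers, 7 T and NK cell genes and 3 B cell genes were higher, in a fit that called 18% of all features, among them Cd8a by 2.17 ± 0.69 (adjusted p 0.0314) and Cd79b by 0.79 ± 0.27 (adjusted p 0.0481).

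The counts of listed genes of the same pathways that follow are to be read against the 69.7% of all features called with no NTBC in Fah-/- p53-/- livers, 29.6% higher and 40.1% lower, and the 70.9% in Fah-/- livers, 29.3% higher and 41.6% lower. In each of these 5 lists and in both genotypes, the share of genes called in either direction was below that background. By direction some shares were above it, most of all that of markers of all leukocytes called higher in Fah-/- livers, 7 of 12. Of 15 tested genes of T cell receptor signalling and T cell subsets outside the list, none was higher and 6 lower with no NTBC in Fah-/- p53-/- livers, and 2 were higher and 5 lower in Fah-/- livers. Lef1, a factor of naive T cells, fell by 1.67 ± 0.4 (adjusted p 0.000704) in Fah-/- p53-/- livers. Of 12 tested NK and cytotoxic genes outside the list, 1 was higher and 5 lower in Fah-/- p53-/- livers with no NTBC, and 2 higher and 2 lower in Fah-/- livers. Fasl, the death ligand of killer cells, rose in Fah-/- p53-/- livers by 1.83 ± 0.37 (adjusted p 0.000105), and the lipid receptor gene S1pr5, which guides NK cells, fell by 4.31 ± 0.47 there (adjusted p 2.55e-08).

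Of 16 tested B cell genes outside the list, 3 were higher and 3 lower with no NTBC in Fah-/- p53-/- livers and 6 higher and 1 lower in Fah-/- livers. Fcer2a, the low-affinity IgE receptor of B cells, was lower than in Fah-/- livers with no NTBC, with changes of -1.36 ± 0.21 in Fah-/- p53-/- livers (adjusted p 0.000181) and -1.49 ± 0.21 in Fah-/- p21-/- livers (adjusted p 0.000139). Fcer2a was also called lower in Fah-/- p53-/- than in Fah-/- livers at full dose. Among 12 markers of all leukocytes, 4 were higher and none lower with no NTBC in Fah-/- p53-/- livers, and 7 higher and none lower in Fah-/- livers. Their median log2 changes were 0.43 and 0.89, beside -0.144 and -0.167 over all features. Of 13 chemokines and cytokines that draw or feed lymphocytes, 1 was higher and 3 lower in Fah-/- p53-/- livers and 4 higher and 3 lower in Fah-/- livers. Cxcl9, which attracts activated T cells, fell by 2.99 ± 0.55 (adjusted p 4.52e-05) in Fah-/- p53-/- livers, and Ccl3, which draws T cells and monocytes, rose by 3.57 ± 0.73 (adjusted p 0.000145) in Fah-/- livers.

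Within groups, several members varied together from array to array. The deviations from the group mean correlated at 0.96 for Lck and Nkg7, 0.91 for Cd3d and Cd5, 0.91 for Cd5 and Cd6, 0.89 for Cd79b and Ms4a1, and 0.88 for Gzma and Klrd1, over 28 arrays. Without array 1 of the Fah-/- p53-/- livers with no NTBC the same pairs gave 0.91, 0.84, 0.84, 0.74 and 0.73. These pairs, too, were chosen after their values were seen, and their deviations share each array's scaling. Pairs of other genes were not computed for comparison. Pairs of a B cell gene with a T or NK cell gene reached similar values over 28 arrays, 0.87 for Blnk and Klrd1 and 0.85 for Cd2 and Ms4a1. Some members did not vary with their own list. Their median correlations with its other genes were 0.02 for Cd4 and for Cd28, -0.15 for Cd79a and -0.36 for Cr2 over 28 arrays. Without the same array 1 they were -0.07 for Cd4, -0.2 for Cd28, -0.22 for Cd79a and -0.02 for Cr2.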

How the data were processed

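Liver RNA of 28 samples was labelled with 1 dye and hybridised to Agilent whole mouse genome arrays. The authors deposited scanner files whose intensity values (processed signal, background-subtracted) came from Feature Extraction 10.7.3.1, per the file headers, or 10.5, per the submitters' processing notes. They also deposited a table of normalized log2 values, used only as an alternative. Here each intensity was taken as log2 minus the array's 75th percentile, control spots and uneven spots were left out, and spots of a probe were averaged. A probe was kept if some group had it well above background on all 4 of its arrays (27520 of 41174), and the brightest stood for its gene. Accessions were named through RefSeq's table for GRCm38.p6, giving 28462 probes a symbol. A mean per group was fitted with limma 3.58.1 in R 4.3.3 over all 28 arrays (21 residual degrees of freedom, 20311 features, Benjamini-Hochberg adjustment over all of them, two-sided, called under 0.05). The fit was checked on simulated data. The number of arrays limits the precision. The highest correlation between arrays was 0.994, and none was counted as a duplicate. All members may be named, and of each other list up to 2 called genes with the largest rise and 2 with the largest fall per comparison. Members and lists were chosen with earlier results of these data known. Alternatives were the deposited table, normexp on median signals with an offset of 50, quantile normalization, other filters, the mean of a gene's probes, only the compared groups, slide and replicate blocks, sex-matched arrays and leaving out arrays. Values of some single genes of the other lists are not reported here.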

Additional observations from a re-analysis of the deposited data

Results flagged for a closer look

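In 9 of 145 combinations of gene and group, 1 array stood far from the other three, by the gap to the nearest of them over the range of the group. Chance flags about 1 in 20 groups. In Fah-/- p53-/- livers, array 1 with no NTBC read 28.6% of P75 for Blnk (others 216 to 315%), and array 1 at full dose read 37.8% for Cd3d (others 25.1 to 26.1%) and 27.7% for Il2rb (others 20.7 to 21.5%). In Fah-/- p21-/- livers, array 3 read 2.5% for Ms4a1 (others 5.27 to 5.72%). In Fah-/- livers with no NTBC, array 2 read 31.6% for Gzmb (others 11.7 to 13.1%) and array 1 read 1.96% for Cd28 (others 1.52 to 1.57%). In Fah-/- livers at reduced dose, array 2 was the high one for 3 B cell genes, with 132% for Cd79b (others 73.6 to 77.5%), 22.4% for Pou2af1 (others 11.7 to 12.8%) and 10.8% for Cd22 (others 8.04 to 8.39%).

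In 5 genes the response to NTBC withdrawal or reduction differed between Fah-/- p53-/- and Fah-/- livers by a test of the difference itself. At reduced dose the log2 difference was 1.26 for Cd3e and 0.93 for Cd4. With no NTBC it was -2.62 for Gzma, -1.88 for Ms4a1 and -1.37 for Pou2af1. Over all features, the same test called 10.4% at reduced dose and 9.11% with no NTBC. With normexp none of the 5 calls was kept. Those of Gzma, Ms4a1 and Pou2af1 ended in 11 of 25, 15 of 25 and 18 of 26 alternatives.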

How the results depend on the processing

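Pairs of counts are called T and NK cell genes and B cell genes, a single count names its list, and comparisons by dose are against full dose. The alternatives kept the direction of every called change except with normexp. The calls of Cd3e, Cd4 and Zap70 with no NTBC, and of Zap70 at reduced dose, were kept under each alternative run in both genotypes. With normexp the median of all features moved to -0.345 at reduced dose in Fah-/- p53-/- livers, and to -0.411 with no NTBC in Fah-/- p53-/- livers and -0.396 in Fah-/- livers. Changes that turned sign with normexp were, at reduced dose in Fah-/- p53-/- livers, Cd22 -0.83, Cd247 -1.09, Cd28 -1.28, Cd2 -1, Cd3g -1.05, Cd4 -0.94, Cr2 -0.94, Gzmb -0.91, Il7r -1.17, Klrd1 -0.81 and Prf1 -0.95. With no NTBC they were Cd247 -0.24 and Prf1 -0.85 in Fah-/- p53-/- livers, and Cd247 -0.1, Cd8a -0.22 and Prf1 -0.67 in Fah-/- livers. The others were Prf1 -0.18 at reduced dose in Fah-/- livers, Mzb1 0.24 between Fah-/- p53-/- and Fah-/- livers with no NTBC, and the Cd4 difference in response to reduced NTBC, -0.4. The cause was not tested.

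Normexp gave 3 T and NK cell genes with no NTBC in Fah-/- livers (main 10) and 14 and 5 at reduced dose in Fah-/- p53-/- livers (main 3 and 1). It gave 2 T and NK cell genes at reduced dose in Fah-/- livers (main 8). Between Fah-/- p53-/- and Fah-/- livers it gave 1 T and NK cell gene at full dose (main 4), 0 at reduced dose (main 3), and 0 and 0 with no NTBC (main 3 and 4). Between Fah-/- p21-/- and Fah-/- livers it gave 1 and 0 (main 4 and 3). It gave 0 T and NK cell genes between the double mutants (main 1) and for the difference in response to reduced NTBC (main 2), and 0 and 0 for that to no NTBC (main 1 and 2). Requiring all 28 arrays above background, which tests fewer genes, gave 3 and 0 with no NTBC in Fah-/- livers, 8 and 3 in Fah-/- p53-/- livers (main 13 and 6), 3 T and NK cell genes at reduced dose in Fah-/- livers and 0 B cell genes in Fah-/- p53-/- livers. It gave 1 T and NK cell gene between Fah-/- p53-/- and Fah-/- livers at full and at reduced dose, 1 for Fah-/- p21-/- against Fah-/- livers, 0 and 1 between the double mutants, and 1 and 0 T and NK cell genes for the differences in response to reduced and to no NTBC. With no filter, the T and NK cell genes were 2 for Fah-/- p21-/-, 1 for Fah-/- p53-/- with no NTBC, 0 between the double mutants, and 0 for the difference in response to no NTBC, with 0 B cell genes. The deposited table gave 5 T and NK cell genes at reduced dose in Fah-/- livers, 1 for Fah-/- p53-/- with no NTBC, 0 between the double mutants, 0 and 1 for the difference in response to no NTBC, and 0 B cell genes with no NTBC in Fah-/- livers (main 2), where quantile normalization gave 1. Quantile normalization gave 0 T and NK cell genes between the double mutants.

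Fitting only the compared groups gave 0 T and NK cell genes in all 3 genotype comparisons with no NTBC and for the difference in response to it, and 4 for that to reduced NTBC. It gave B cell counts of 1 at full dose and 2 at reduced dose between Fah-/- p53-/- and Fah-/- livers (main 0 each), 2 with no NTBC (main 4), and 2 at reduced dose in Fah-/- p53-/- livers. Slide as a fixed block, and the slide shared by both groups, gave 0 and 0 for both double mutants against Fah-/- livers, and 0 T and NK cell genes between them. Slide as a random block gave 0 B cell genes for the difference in response to no NTBC. Sex-matched Fah-/- p21-/- arrays gave 1 T and NK cell gene against Fah-/- livers and 0 against Fah-/- p53-/- livers. Leaving out the 3 arrays farthest from their groups together, chosen after seeing the data, gave 5 and 3 between the double mutants, 1 T and NK cell gene for Fah-/- p53-/- and 5 B cell genes for Fah-/- p21-/- against Fah-/- livers, and 4 B cell genes for the difference in response to no NTBC.

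Leaving out 1 array at a time gave, with no NTBC, 10 to 14 and 6 to 8 in Fah-/- p53-/- livers and 8 to 10 and 1 to 2 in Fah-/- livers. At reduced dose it gave 3 to 4 and 1 in Fah-/- p53-/- livers and 5 to 7 and 0 in Fah-/- livers, the 5 without Fah-/- full-dose array 1. Between Fah-/- p53-/- and Fah-/- livers it gave 2 to 4 and 0 at full dose, the 2 again without that array, 3 and 0 at reduced dose, and 0 to 3 and 2 to 4 with no NTBC. The 0 came without Fah-/- array 2 or 4, and Fah-/- p53-/- array 1 or 4 left 1. It gave 1 to 3 and 2 to 4 for Fah-/- p21-/- against Fah-/- livers, and 0 to 7 and 0 to 3 between the double mutants, the highest without Fah-/- p53-/- array 1. For the differences in response it gave 0 to 2 and 0 to 2 to no NTBC, and 2 to 3 and 0 to reduced NTBC. The sample numbers do not pair the samples: deviations of same-numbered samples correlated between -0.23 and 0.36, and 18 of 84 pairs exceeded 0.1. With the replicate block, 1 B cell gene passed for the difference in response to no NTBC, and 14 T and NK cell genes were called with no NTBC in Fah-/- p53-/- livers and 3 for Fah-/- p21-/-. Signals near background limit the precision for Cd2, Cd247, Il7r, Cd79a, Cr2 and Prf1.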
